A study of Rattus norvegicus with 9 samples.

Results

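The comparison of HPC0h with Sham rests on 6 of the 9 small RNA libraries of the series, 3 labelled HPC0h and 3 labelled Sham, all from the CA1 region of the rat hippocampus. Pyramidal neurons of CA1 are especially vulnerable to a passing loss of blood flow to the forebrain, and many of them die only days later. The rats were male Wistar animals of 7 to 8 weeks. For HPC0h the hour given is 0. What HPC stands for, and whether these rats had also been made ischemic, is not stated in the labels. Sham is the control group, and its labels give no procedure. The series also holds 3 libraries labelled tGCI26h, where tGCI is transient global cerebral ischemia and the label carries the hour 26. The numbered columns carry 3 numbers each, and no label says whether these are pooled rats.

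The table lists 5794 entries of 18 to 39 nt, of which 512 carry a catalogued rat piRNA name (rno_piR) and 5282 carry other names given by the authors. Of all entries, 3364 were above 0 in at least 1 of the 6 libraries. Many entries are longer or shorter forms of one another, so entries that contained each other or overlapped end to end by at least 15 identical nt were joined into 1511 sequence groups. Of these groups, 898 held a single entry and 613 held 4896 entries between them. A group was named by its most abundant entry, and its value was the sum over its entries. Values are the authors' normalised tag counts, and the libraries summed to between 961372 and 992081, so the number of reads behind a value is not known. Overlapping entries can share reads, and a group sum can then hold a read more than once.

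piRNAs are small RNAs that are bound by PIWI proteins, are most abundant in the germ line and are known for silencing transposons there. Many of them begin with U, and partner piRNAs from the opposite strand often carry A at position 10. Small RNA libraries from brain also hold microRNAs, which pair with target mRNAs through their seed, and fragments of tRNAs and rRNAs. tRNA fragments that end near the anticodon are known to be released by the nuclease angiogenin under stress, although the same ends also arise in unstressed cells.

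The sequences that carry the differences described here were read from the deposited table and are written 5′ to 3′. In the first 3 lines, capitals mark U at position 1 and A at position 10 where present. In the 2 lines after them, capitals mark the stretch in which the entries are complementary to each other, 28 nt of 29 nt in each.

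rno_piR_011022: Uaugguuuacugugugaacauagccacaag
rno_piR_022116: UgaaauaaaAcaaaacuguaagaagcccag
rno_piR_017990: agcagcaaauacacccaggaggaguagaa
rno_piR_009428: UACAAAGUGAGUUCCAGGACAGCCAGGGc
rno_piR_000618: CCCUGGCUGUCCUGGAACUCACUUUGUAg

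In the next 4 lines capitals mark the longest run of A, since these entries end or begin in A and share short cores.

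novel_11554_x284: uaaugguucguuuguAAAAAAAAAAAAAA
novel_4017_x1232: aauuucgguugggAAAAAAAAAAA
novel_14262_x213: aauuucgguuggAAAAAAAAAAAAAAAA
novel_13804_x223: AAAAAAuuucgguuggga

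The last 3 lines are a tRNA fragment with its extra first G in capitals, a tRNA fragment with the anticodon in capitals, and an rRNA fragment with no capitals.

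novel_3850_x1319: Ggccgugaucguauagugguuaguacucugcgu
novel_6693_x606: cggaagcgugcugggccCAUa
novel_7403_x522: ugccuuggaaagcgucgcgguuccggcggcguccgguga

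One Sham library stood apart from the other 5. Its column is headed Sham with no number and is called Sham u here, the numbered ones are Sham a and Sham b, and the HPC0h libraries are HPC0h a, b and c. HPC0h a, b and c had 2829, 2902 and 2922 entries above 0, Sham a and b had 2795 and 2558, and Sham u had 1201, with none listed at 0 and 4593 blank. Blanks were read as 0. Its Spearman correlation with the other 5 libraries was 0.287 to 0.350 across entries, against 0.886 to 0.961 among those 5. Of 872 entries with at least 10 in all 5 numbered libraries, 294 (33.7%) were blank in Sham u. Tests were therefore made over 6 libraries and without Sham u, and the fit is named beside each difference.

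Over the 6 libraries no entry and no sequence group passed an adjusted p of 0.05 (limma, Benjamini-Hochberg adjustment over 2682 entries or 561 groups, 0% called). At an unadjusted p below 0.05 there were 82 entries higher (3.06%) and 14 lower (0.522%) in HPC0h, 3.58% of those tested, and 4 groups higher (0.713%) and 6 lower (1.07%), 1.78% of those tested. In 46 groups every HPC0h library lay above every Sham library (8.2%), and in 12 every one lay below (2.14%). Groups named below for the smallest p were also required not to overlap, so their lack of overlap is not a separate result. Without Sham u, 14 of 523 groups passed (2.68%), of which 9 were higher (1.72%) and 5 lower (0.956%) in HPC0h. TMM scaling gave 6 higher and 9 lower, median-of-ratios scaling 6 and 5, and quantile normalisation 6 and 7. Of these 14 groups, 8 had the same value in all HPC0h libraries and the same value in both numbered Sham libraries, with no value above 5 in these 5 libraries, so their p rests on the spread of other groups. The other 6 comprised 3 higher groups (rno_piR_011022, a fragment of initiator methionine tRNA and a fragment of 28S rRNA) and 3 lower groups (rno_piR_009428, rno_piR_022116 and an A-tailed group). Among single entries 35 were higher and 11 lower without Sham u (46 of 2622, 1.75%), in 21 and 6 sequence groups. Of these, 21 of the 35 and 9 of the 11 had no spread within either group, and 8 and 1 had a mean of at least 10. TMM scaling gave 17 higher and 7 lower entries, median-of-ratios scaling 18 and 7, and quantile normalisation 16 and 20. Leaving out HPC0h a, HPC0h c or Sham a as well raised the entries called to 93, 84 and 81.

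**Figure D1:**
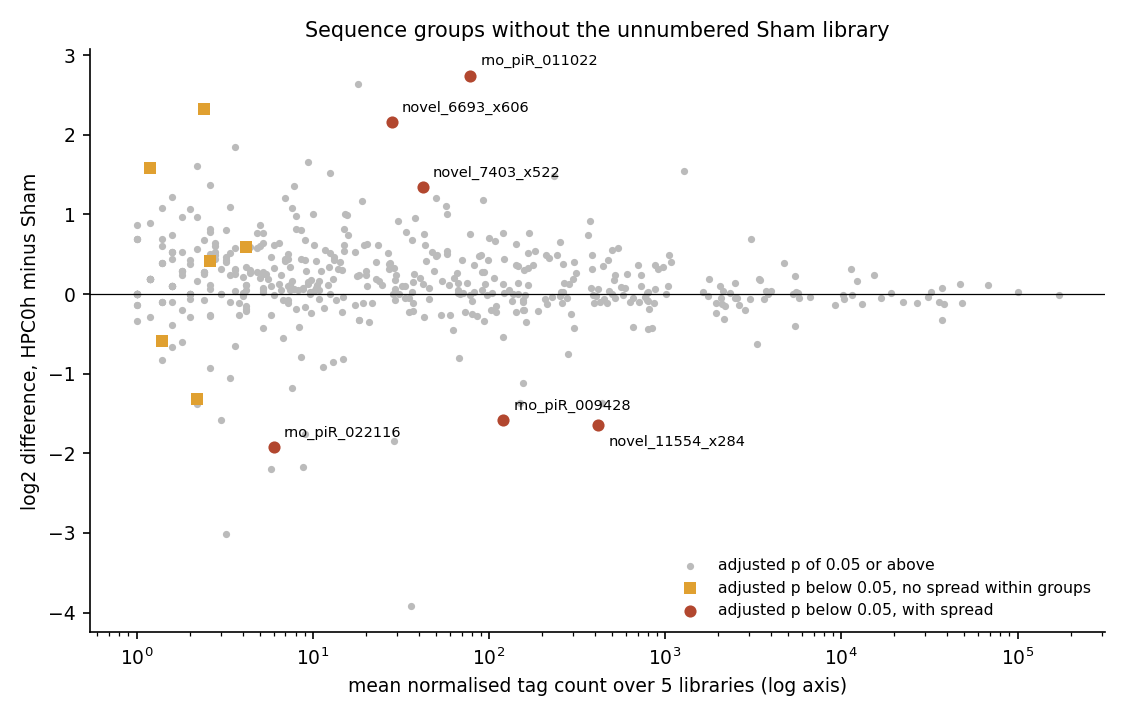
Log2 difference, HPC0h minus Sham, of the 523 sequence groups tested without Sham u (vertical axis) against their mean normalised tag count over 5 libraries (horizontal log axis). The 6 circles with names passed an adjusted p of 0.05 with spread among libraries, and the squares are the 8 groups without spread, some of them on top of one another.

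The called group with the smallest adjusted p, among the 6 with spread, was a catalogued piRNA. rno_piR_011022, a 30-nt piRNA that begins with U and overlapped no other entry, had 120, 126 and 112 normalised tag counts in HPC0h a, b and c, against 16, 18 and 20 in Sham a, b and u. Every HPC0h library lay above every Sham library, Sham u included. The means were 119 ± 7.02 in HPC0h and 18 ± 2 in Sham (SD, n = 3 each). Without Sham u it rose in HPC0h by 2.74 ± 0.09 on the log2(value + 1) scale, or 6.69-fold (SE, limma adjusted p = 0.00165), and it passed in all 19 alternative settings of that fit, with adjusted p from 0.000735 to 0.0194. With Sham u the difference was 2.67 ± 0.43 and the adjusted p was 0.301 (unadjusted p = 0.000537). In limma each SE also draws on the spread of other groups. The wider SE therefore does not show that this piRNA itself varied more with Sham u, which lay beside Sham a and b. In the 3 tGCI26h libraries the same piRNA had 208, 174 and 153 normalised tag counts.

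A pair of catalogued piRNAs from opposite strands of B1, a short interspersed repeat that is transcribed in rodents, lay on opposite sides of Sham. The strand was assigned from knowledge of the repeat and not from an annotation in the files. The 2 entries are complementary from position 1 of each. The first base of one thus lies opposite base 28 of the other, not base 10. rno_piR_009428, the sense member, had 76, 67 and 58 normalised tag counts in HPC0h, against 200, 203 and 186 in Sham a, b and u. It fell without Sham u, by 1.58 on the log2(value + 1) scale (SE 0.14, limma adjusted p = 0.0221), and the HPC0h and Sham libraries did not overlap. rno_piR_000618, the antisense member, had 16, 14 and 10 in HPC0h, against 3, 4 and 5 in Sham. Its groups did not overlap either, and its difference of 1.66 ± 0.25 without Sham u did not pass (SE, limma adjusted p = 0.0908). With Sham u the differences were -1.54 ± 0.35 for the sense member and 1.52 ± 0.64 for the antisense member, each with an adjusted p of 0.646. Sham u lay close to Sham a and b for both members, and these SE also draw on the spread of other groups. The sense member was the more abundant one in every library, in HPC0h and in Sham.

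rno_piR_022116, which has both U at position 1 and A at position 10, had 2, 3 and 2 normalised tag counts in HPC0h, against 12, 11 and 9 in Sham a, b and u. It fell without Sham u by 1.92 on the log2(value + 1) scale (SE 0.17, limma adjusted p = 0.0221), at levels of a few tags, and over 6 libraries the difference was -1.81 ± 0.64 (adjusted p = 0.646). rno_piR_017990 had 25, 27 and 22 in HPC0h, against 12, 9 and 7 in Sham. Its libraries did not overlap, and its difference of 1.17 ± 0.17 without Sham u missed the threshold (SE, limma adjusted p = 0.0884), as did 1.34 ± 0.58 over 6 libraries (adjusted p = 0.646). The calls of rno_piR_009428 and rno_piR_022116 were lost in 3 of 19 and 4 of 18 alternative settings without Sham u, each of which left out a further library, with adjusted p of up to 0.172 and 0.161. They were HPC0h b, Sham a or Sham b for rno_piR_009428, and HPC0h a, HPC0h c, Sham a or Sham b for rno_piR_022116.

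As a class the catalogued piRNAs were few and at low levels. Of the 512 listed, 86 were above 0 in at least 1 of the 6 libraries and 75 reached the mean of 1 that was needed for a test. Of these 75, 39 overlapped no other entry and 36 lay in larger groups, 28 began with U, 18 had A at position 10 and 10 had both. Over 6 libraries none passed, 45 had a positive difference (64.1% of all entries had one), and 9 lay higher and 3 lower in HPC0h without overlap, against 13.7% higher and 0.858% lower of all 2682 entries. Without Sham u 3 were called higher and 2 lower among 70 tested, against 1.33% and 0.42% of 2622 entries. The 3 higher were rno_piR_011022 and 2 entries of the initiator methionine tRNA group, and the 2 lower were rno_piR_009428 and rno_piR_022116. The share of positive differences depended on the scaling: 51 of 70 were above 0 as deposited, where 72.9% of all entries were, with a median of 0.18 (log2) against 0.21 over all entries, and 34 under TMM, 34 under median-of-ratios scaling and 33 under quantile normalisation.

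Some catalogued names belong to other RNAs by sequence. Of the 512 catalogued entries, 18 matched a mature microRNA of RefSeq (assembly GRCr8), and 6 of these were tested. rno_piR_010469 holds miR-34b-5p and had 167, 188 and 187 normalised tag counts in HPC0h, against 151, 136 and 68 in Sham a, b and u. rno_piR_012452 holds miR-17-5p and had 188, 209 and 220 in HPC0h, against 225, 221 and 136 in Sham. Neither passed the test. The most abundant catalogued entry, rno_piR_005567, is part of the glycine tRNA group and had 2067, 2452 and 2105 in HPC0h, against 1816, 1745 and 4792 in Sham.

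**Figure D2:**
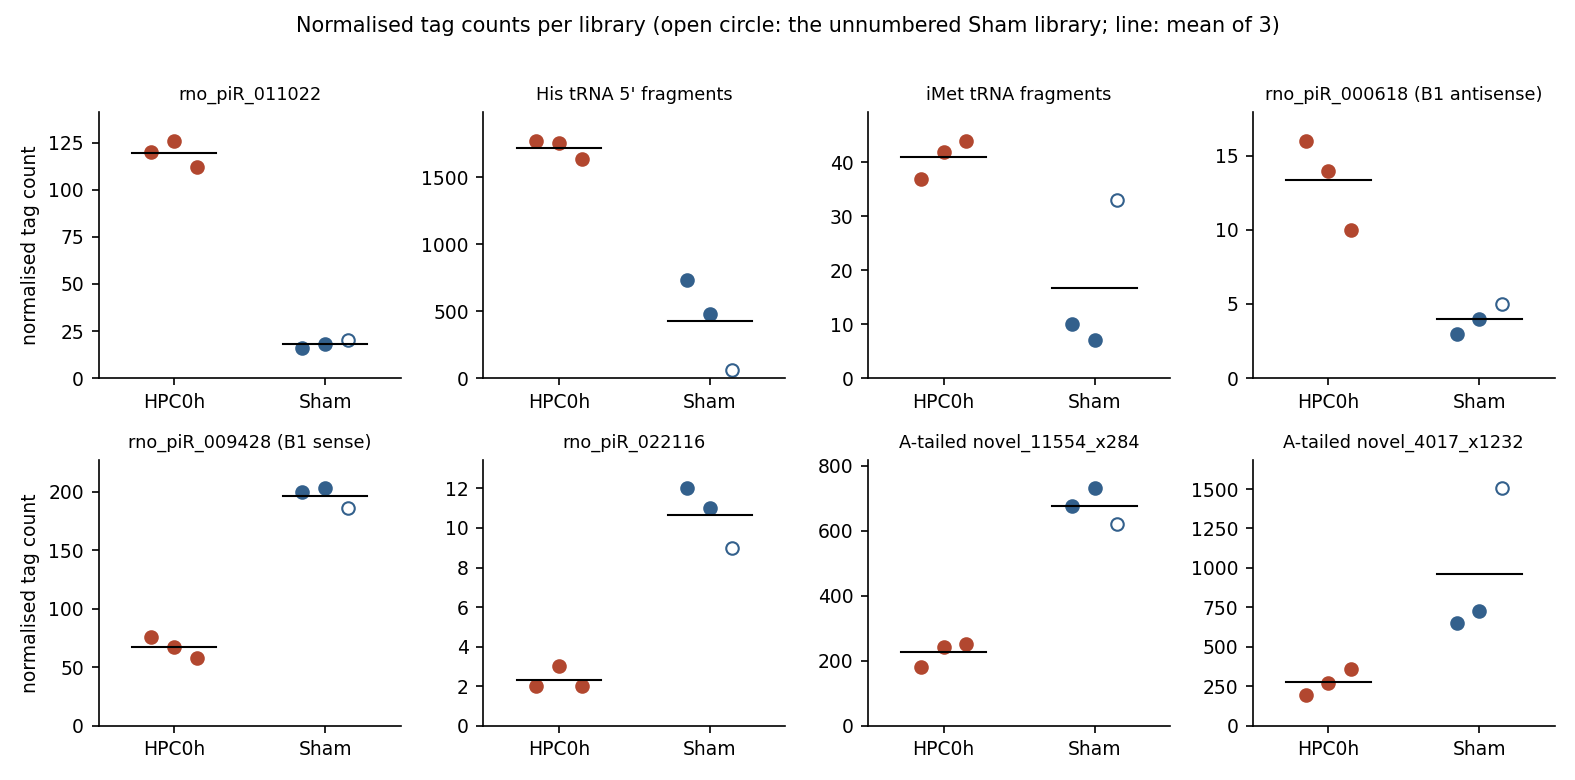
Normalised tag counts of 8 sequence groups in each HPC0h library (left) and each Sham library (right), with Sham u as an open circle and the mean of 3 libraries as a line. rno_piR_011022 lies at 112 to 126 in HPC0h and 16 to 20 in Sham, and in the initiator methionine tRNA panel Sham u (33) lies well above Sham a and b (10 and 7).

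Small RNAs with a run of A were lower in HPC0h. The most even of them, novel_11554_x284 with its shorter forms, had 182, 242 and 252 normalised tag counts in HPC0h, against 676, 730 and 621 in Sham a, b and u. It fell without Sham u by 1.65 on the log2(value + 1) scale (SE 0.18, limma adjusted p = 0.0392), and with Sham u the difference was -1.59 ± 0.29 (adjusted p = 0.325). The call without Sham u was lost in 5 of 19 alternative settings, when HPC0h b, HPC0h c, Sham a or Sham b was left out and when the most abundant entry stood for the sum (adjusted p = 0.063 to 0.255). No library of one group reached the other group. The origin of its core, the stretch before the A run, is not known from the files.

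A second core, the stretch uuucgguugg, was shared by 3 further groups. novel_4017_x1232 with 18 entries had 194, 269 and 358 normalised tag counts in HPC0h, against 648, 728 and 1504 in Sham a, b and u. novel_13804_x223 had 71, 85 and 125 in HPC0h, against 236, 236 and 690 in Sham. novel_14262_x213 had 8, 24 and 12 in HPC0h, against 47, 54 and 61 in Sham. All HPC0h values lay below all Sham values in these 3 groups, as in 2.14% of all groups. They were picked for this, so it is not a separate result. Their differences without Sham u were -1.37 ± 0.30, -1.36 ± 0.28 and -1.85 ± 0.51 (SE), and none passed (limma adjusted p = 0.169, 0.169 and 0.233). Over 6 libraries they were -1.75 ± 0.44, -1.88 ± 0.54 and -1.94 ± 0.60, each with an adjusted p of 0.646. Without Sham u, TMM scaling carried novel_4017_x1232 and novel_13804_x223 past the threshold, with adjusted p of 0.0458 and 0.0393. As group sums, Sham u held the highest value of each of these 3 groups, and their direction was the same with and without it. In novel_4017_x1232 this came from the forms with 13 nt before the A run. Its forms with 12 nt before the A run were all 0 in Sham u.

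Among all tested entries, 19 ended in at least 8 A, all of them in 3 of these 4 groups. Each of the 19 was lower in HPC0h, with a median difference of -1.29 without Sham u and -0.25 over 6 libraries, against 0.21 and 0.59 over all entries. Without Sham u 6 of the 19 were called lower, against 0.42% of all entries, and all 6 had 1, 1 and 1 in HPC0h against 2 and 2 in Sham a and b. No entry of the 19 with spread among libraries passed, and over 6 libraries none passed. Over 6 libraries 7 of the 19 lay lower in HPC0h without overlap, against 0.858% of all entries. Others overlapped because Sham u was at 0, such as novel_14352_x211 with 10, 26 and 11 in HPC0h, against 57, 61 and 0 in Sham. These entries are overlapping forms that can share reads and so are not separate measurements. For example, the entry novel_5313_x836 had 28, 35 and 55 in HPC0h, against 86, 100 and 269 in Sham, and the entry novel_4017_x1232 of the same group had 32, 45 and 59, against 102, 117 and 283.

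Among tRNA fragments, those from the 5′ part of histidine tRNA were higher in HPC0h but were not called in either main fit. The identities of tRNA and rRNA groups were assigned from knowledge of these sequences, since no reference for them was at hand. The histidine group, novel_3850_x1319 with 57 entries, summed to 1773, 1757 and 1635 normalised tag counts in HPC0h, against 733, 476 and 61 in Sham a, b and u. Every HPC0h library lay far above the highest Sham library. Its difference was 2.63 ± 0.88 over 6 libraries (SE, limma unadjusted p = 0.022, adjusted p = 0.646) and 1.54 ± 0.21 without Sham u (adjusted p = 0.0851), and it passed in 6 of 19 alternative settings of the second fit, among them leaving out Sham a (adjusted p = 0.0143) or Sham b. Forms with the extra G that is added in front of this tRNA after transcription had 657, 729 and 624 in HPC0h, against 295, 185 and 0 in Sham. Forms that start 1 base later had 399, 384 and 402 in HPC0h, against 135, 88 and 0 in Sham. Both forms were thus higher in each HPC0h library than in any Sham library, and both were blank in Sham u.

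Fragments of initiator methionine tRNA, which carries the first amino acid of each protein, were also higher. The 3-entry group novel_6693_x606 had 37, 42 and 44 normalised tag counts in HPC0h, against 10, 7 and 33 in Sham a, b and u. It rose without Sham u by 2.16 ± 0.19 on the log2(value + 1) scale (SE, limma adjusted p = 0.0221), and Sham u alone brought the difference to 1.54 ± 0.71 (adjusted p = 0.646). The call was lost in 4 of 19 alternative settings without Sham u, when HPC0h a, HPC0h b, HPC0h c or Sham b was left out, with adjusted p of up to 0.137. It holds the catalogued entries rno_piR_000194, with 12, 15 and 15 in HPC0h against 3, 2 and 11 in Sham, and rno_piR_005552, with 11, 11 and 13 in HPC0h against 3, 2 and 11 in Sham. Their printed relative ends just after the anticodon.

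The remaining tRNA groups did not pass. Fragments of the glycine tRNA, novel_3169_x1751, had 9487, 15010 and 10218 normalised tag counts in HPC0h, against 12154, 10737 and 31269 in Sham a, b and u, and were the most abundant of the class in every library. One glutamate tRNA group, novel_10360_x329, had 2403, 2146 and 1419 in HPC0h, against 2757, 2106 and 194 in Sham. The other, novel_1777_x4035, had 300, 432 and 194 in HPC0h, against 189, 57 and 0 in Sham, so that its lowest HPC0h library lay just above its highest Sham library. Within each glutamate group the HPC0h libraries overlapped or nearly touched Sham a.

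The glutamine tRNA group novel_10976_x305 spread widely within both groups, with 442, 621 and 289 in HPC0h, against 401, 129 and 82 in Sham. A further 4 groups were higher in all HPC0h libraries than in Sham a and b, as were 15.7% of all groups, and had their highest value in Sham u. They were the lysine tRNA group rno_piR_005595 (292, 253 and 278 in HPC0h, against 186, 202 and 958 in Sham), the lysine tRNA entry rno_piR_005597 (54, 46 and 51 against 29, 36 and 282), the elongator methionine tRNA entry rno_piR_000521 (39, 42 and 49 against 26, 27 and 149) and the aspartate tRNA group novel_14347_x211 (64, 71 and 65 against 50, 41 and 501). A mitochondrial leucine tRNA fragment, novel_14052_x218, showed the same order, with 14, 19 and 19 in HPC0h, against 7, 4 and 70 in Sham. The differences of the 4 groups were 0.50 to 0.68 without Sham u and -0.60 to -0.13 over 6 libraries, and those of the mitochondrial fragment were 1.52 and 0.36. The adjusted p of these 5 without Sham u lay between 0.142 and 0.169 (limma). The more abundant mitochondrial leucine tRNA group, novel_5261_x848, had 114, 269 and 81 in HPC0h, against 183, 132 and 2901 in Sham, with differences of -0.20 without Sham u and -1.60 over 6 libraries.

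Over the 13 tRNA groups with a mean of at least 50, 6 had a positive difference over 6 libraries with a median of -0.13 (0.07 under median-of-ratios scaling), and 9 had one without Sham u with a median of 0.50 (7 to 9 of 13 under the other scalings). Of all groups tested, 52.9% had one over 6 libraries and 64.8% without Sham u. Over all groups with that mean the medians were 0.16 and 0.03. None of the 13 was called. The initiator methionine group, called without Sham u, has a mean of 28.8 and so is not among them. The direction of these 13 groups as a class changed with Sham u, and the histidine group, one of the glutamate groups and the valine tRNA group rno_piR_005901 were among those positive in both fits.

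Fragments of rRNA, the RNA of the ribosome itself, were mostly higher in HPC0h. Of 48 rRNA groups with a mean of at least 50, 39 had a positive difference over 6 libraries (median 0.66) and 45 without Sham u (median 0.44). Of all groups tested, 52.9% and 64.8% had one. Of the 48 groups, 27 are pieces of 28S rRNA and 18 of 18S rRNA, so they are not 48 separate measurements. The counts were 38 to 40 of 48 and 40 to 43 of 48 under the other scalings, and the median of all groups was then 0.03 to 0.29 over 6 libraries (0.12 as deposited) and -0.06 to 0.02 without Sham u (0.11 as deposited). Over 6 libraries 7 of the 48 lay higher without overlap and none lower, against 8.2% higher and 2.14% lower of all groups. Without Sham u 16 of the 48 lay higher in every HPC0h library than in Sham a and b and none lower, against 15.7% higher and 5.74% lower of all groups, and 1 was called. That one was novel_7403_x522, a fragment of 28S rRNA, with 55, 54 and 58 normalised tag counts in HPC0h, against 24, 19 and 182 in Sham a, b and u (1.34 ± 0.13, SE, limma adjusted p = 0.0262). With Sham u its difference was 0.33 ± 0.89, and the call without Sham u was lost in 8 of 19 alternative settings, among them leaving out any HPC0h library or Sham b, with adjusted p of up to 0.263.

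The most abundant rRNA group, novel_9031_x397 from the 5′ end of 28S rRNA, had 3442, 3788 and 3616 normalised tag counts in HPC0h, against 1893, 2650 and 521 in Sham a, b and u. Its libraries did not overlap, and its difference of 0.69 ± 0.17 without Sham u did not pass (SE, limma adjusted p = 0.194), nor did 1.39 ± 0.59 over 6 libraries (adjusted p = 0.646). novel_12963_x242, also of 28S rRNA, had 90, 98 and 92 in HPC0h, against 60, 50 and 48 in Sham, without overlap and with differences of 0.76 without Sham u (limma adjusted p = 0.0875) and 0.82 over 6 libraries (adjusted p = 0.646). The largest 18S rRNA group, novel_14426_x210, varied more within HPC0h, with 1186, 1509 and 561, against 961, 653 and 218 in Sham. rRNA groups made up 1.96%, 2.46% and 1.46% of the library total in HPC0h a, b and c, against 1.56%, 1.32% and 2.15% in Sham a, b and u, so the class totals overlapped.

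Other ribosomal and structural RNAs gave no called difference. Fragments of Y1 RNA, a small RNA bound by the Ro protein, had 5256, 7069 and 4533 normalised tag counts in HPC0h, against 4997, 5906 and 3779 in Sham a, b and u (novel_4748_x984). The 5S rRNA fragment novel_14648_x205 had 260, 366 and 209 in HPC0h, against 306, 198 and 2940 in Sham. Both overlapped between the groups, and Sham u held by far the most of the 5S fragment. The groups novel_12963_x242, novel_14426_x210, novel_1777_x4035, novel_14052_x218, rno_piR_005597 and rno_piR_000521 are named here after their values were seen.

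**Figure D3:**
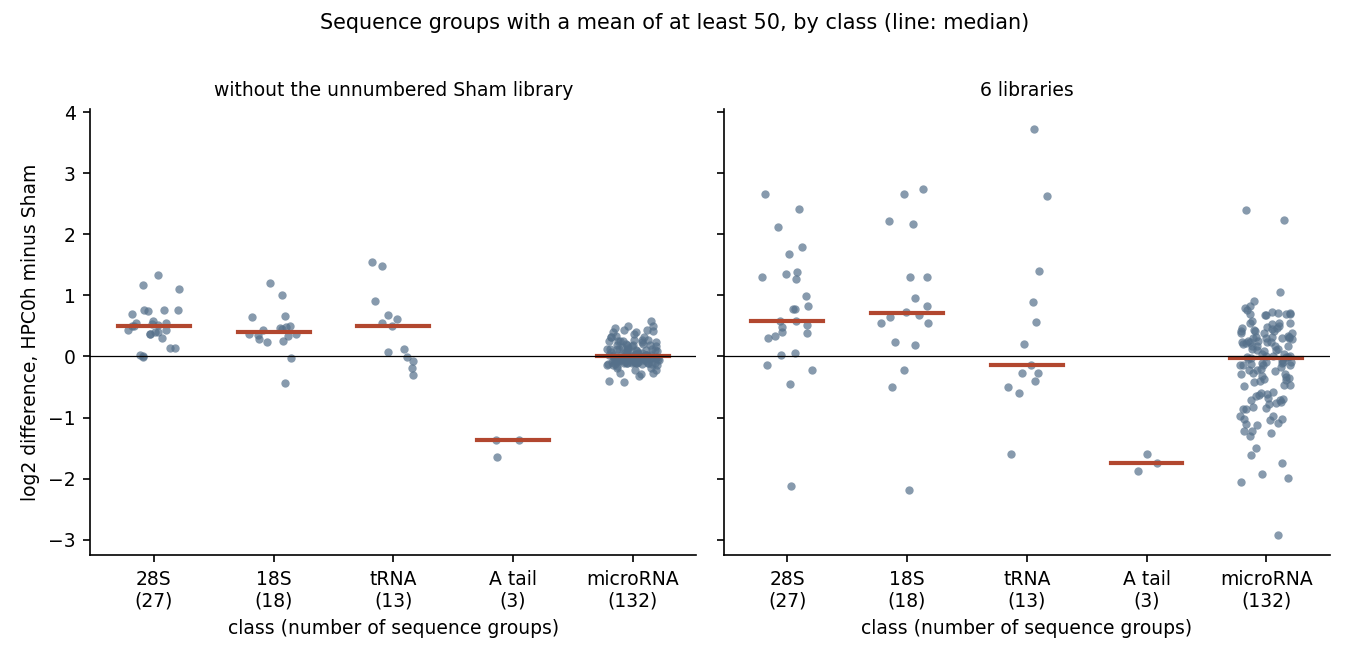
Log2 difference, HPC0h minus Sham, of sequence groups with a mean of at least 50, by class, without Sham u (left panel) and over 6 libraries (right panel), with 1 point per group and the median as a line. The 28S and 18S rRNA medians are 0.50 and 0.40 without Sham u, the microRNA median is 0.00, and the points spread further when Sham u is included.

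microRNAs made up most of every library, at 86.5%, 84.7% and 85.1% of the total in HPC0h and 86.4%, 86.1% and 81.1% in Sham a, b and u for entries that matched a mature microRNA of RefSeq (assembly GRCr8). Those of the regulated lists that the results turn on are printed with the seed, bases 2 to 8, in capitals. Their seeds all differ.

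miR-210-3p: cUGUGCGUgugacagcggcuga
miR-132-3p: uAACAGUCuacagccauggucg
miR-134-5p: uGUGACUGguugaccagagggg
miR-138-5p: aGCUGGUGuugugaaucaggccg

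No microRNA sum passed over 6 libraries (0 of 220, 0 also at an unadjusted p below 0.05, limma). Without Sham u 2 of 207 passed (0.966%), miR-6329 with 1, 1 and 1 normalised tag counts in HPC0h against 2 and 2 in Sham a and b, and miR-136-3p with 5, 5 and 5 against 3 and 3. Neither had any spread within its groups, miR-136-3p had 749 in Sham u, and these differences are of 1 or 2 tags.

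miR-210-3p, the best known target of the hypoxia-inducible factor among microRNAs, was the member of the hypoxia list that differed most. It had 41, 43 and 39 normalised tag counts in HPC0h, against 21 and 26 in Sham a and b, and it was blank in Sham u. Every HPC0h library lay above every Sham library. The difference without Sham u was 0.78 ± 0.12 on the log2(value + 1) scale (SE, limma unadjusted p = 0.0033, adjusted p = 0.228), and it passed in 1 of 16 alternative settings, the one that kept sums with a mean of at least 10 (adjusted p = 0.0171). Over 6 libraries the difference was 2.32 ± 1.33 (adjusted p = 0.636). miR-107-3p had 51, 48 and 39 in HPC0h against 28, 45 and 388 in Sham, miR-103-3p had 11197, 13297 and 13590 against 14035, 13564 and 10984, and miR-17-5p is given above. Of the 4 hypoxia microRNAs measured, 2 had a positive difference without Sham u, as had 55.6% of all sums, and 2 over 6 libraries, as had 42.3%, and none was called.

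Of the list of microRNAs known to follow neuronal activity, 3 of 4 were higher in every HPC0h library than in Sham a and b, against 10.1% of all microRNA sums. Over 6 libraries 1 of 4 was, against 4.55% of all sums. The list was chosen with earlier results of these data known, and 2 of its members come from 1 cluster. These shares are therefore no test of the list. miR-132-3p, which CREB induces in neurons, had 1014, 1044 and 905 normalised tag counts in HPC0h, against 827, 755 and 988 in Sham a, b and u. Its cluster partner miR-212-3p had 102, 112 and 114 in HPC0h, against 95, 69 and 390 in Sham. miR-134-5p, known for limiting dendritic spine size, had 622, 645 and 680 in HPC0h, against 514, 576 and 416 in Sham. Sham u lay inside or above the HPC0h range for the first 2 and below it for miR-134-5p. The differences without Sham u were 0.32 ± 0.09, 0.43 ± 0.17 and 0.25 ± 0.07 (SE), and none passed (limma adjusted p = 0.403, 0.728 and 0.440). Over 6 libraries they were 0.21, -0.32 and 0.38, so miR-212-3p changed direction with Sham u, and the list had 2 of 4 above 0 with a median of -0.06. The fourth, miR-146a-5p, an inhibitor of inflammatory signalling, had 167, 138 and 141 in HPC0h, against 161, 158 and 395 in Sham.

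Of 6 injury and inflammation microRNAs 4 were measured, and none had a positive difference without Sham u (median -0.08), while 1 had one over 6 libraries (median -0.44). miR-21-5p had 3009, 2692 and 3255 normalised tag counts in HPC0h, against 3108, 3100 and 6295 in Sham a, b and u. miR-34a-5p, a target of p53, had 168, 138 and 105 in HPC0h, against 114, 159 and 361 in Sham. Both overlapped between the groups. miR-148a-3p, the most abundant of the list, had 39886, 33201 and 29033 in HPC0h, against 39419, 45242 and 3309 in Sham, and its difference was -0.32 without Sham u and 0.90 over 6 libraries. The 8 let-7 members had a median of -0.05 without Sham u (5 of 8 were above 0 under quantile normalisation and 2 of 8 as deposited) and 0.29 over 6 libraries, where 6 of 8 were above 0. Among them let-7f-5p, the most abundant, had 43343, 45991 and 50687 in HPC0h, against 48725, 52019 and 23720 in Sham.

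The brain microRNAs that dominate the libraries gave small differences. miR-9a-5p, which acts in neural progenitors and neurons, had 170037, 167640 and 173751 normalised tag counts in HPC0h, against 175553, 168304 and 226337 in Sham a, b and u (-0.01 ± 0.05 without Sham u and -0.14 ± 0.28 over 6 libraries, SE). miR-128-3p, enriched in neurons, had 110360, 99244 and 93597 in HPC0h, against 93617, 105171 and 55193 in Sham. miR-138-5p, found at synapses, had 780, 831 and 738 in HPC0h, against 679, 643 and 1090 in Sham, higher than Sham a and b in each HPC0h library (0.24 ± 0.07 without Sham u, limma adjusted p = 0.403, and 0.00 ± 0.26 over 6 libraries). Among microRNA groups with a mean of at least 50, 66 of 131 were above 0 without Sham u (median 0.00) and 63 of 132 over 6 libraries (median -0.02). The count without Sham u was 27 under TMM (median -0.19), 40 under median-of-ratios scaling (median -0.10) and 55 under quantile normalisation, and over 6 libraries it was 69, 80 and 65, so the direction of the class depended on the scaling.

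**Figure D4:**
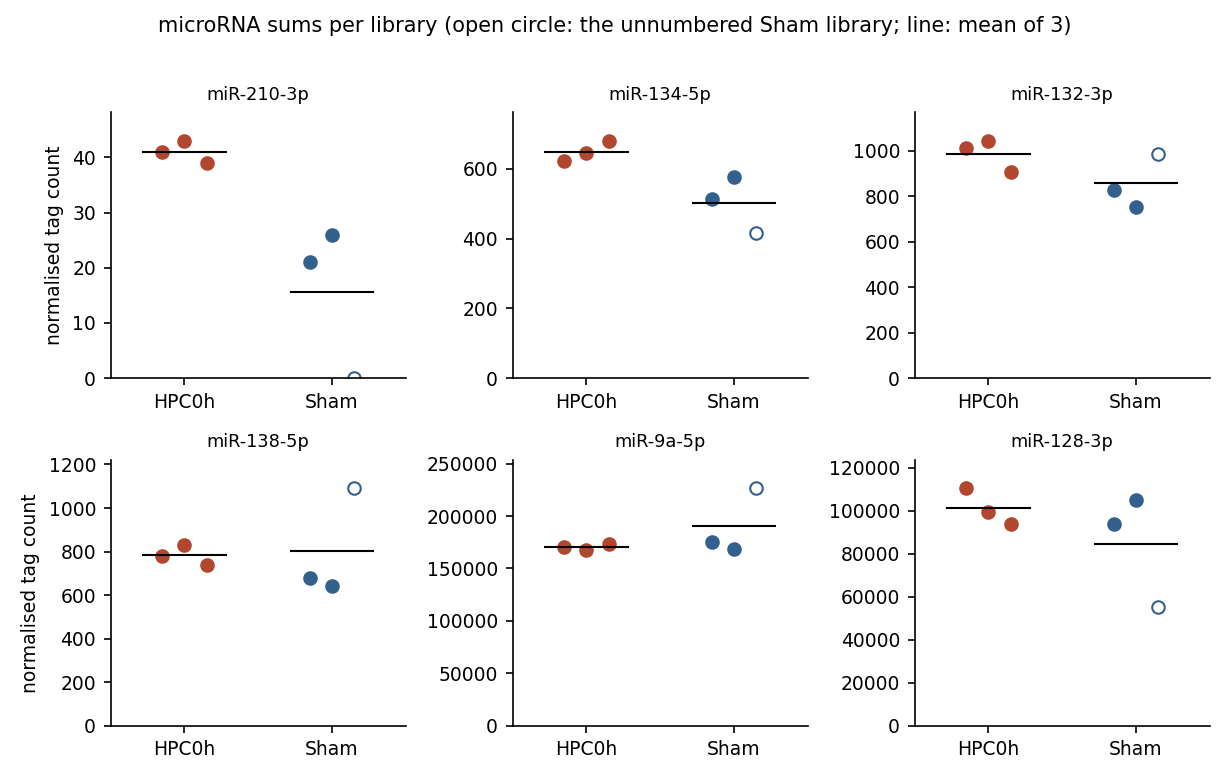
Normalised tag counts of 6 microRNA sums in each HPC0h library (left) and each Sham library (right), with Sham u as an open circle and the mean of 3 libraries as a line. miR-210-3p lies at 39 to 43 in HPC0h and at 21, 26 and 0 in Sham, while miR-9a-5p and miR-128-3p overlap between the groups.

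Markers of other cell types were read from the same sums. Neuronal markers matched to RefSeq (3 of 4) summed to between 267715 and 281177 in HPC0h and between 269849 and 282620 in Sham, and were high in every library. The remaining one, miR-124-3p, was recognised from knowledge of its sequence (novel_8091_x460) and had 4636, 5336 and 5844 in HPC0h, against 3827, 4155 and 52807 in Sham a, b and u. It was higher in each HPC0h library than in Sham a and b (0.40 without Sham u, limma adjusted p = 0.276, and -0.85 over 6 libraries). None of these microRNAs tells CA1 from other brain regions. Red cell and leukocyte markers matched to RefSeq (2 of 6) summed to 48 to 61 in HPC0h, against 72 and 61 in Sham a and b and 878 in Sham u, with the leukocyte marker miR-142-5p at 0 in all 5 numbered libraries. The red cell marker miR-486-5p, recognised in the same way (novel_6539_x627), had 210, 167 and 238 in HPC0h, against 240, 188 and 109 in Sham, so that Sham u was its lowest library. Choroid plexus and epithelial markers matched (2 of 8) summed to 101 to 122 in HPC0h, against 144, 117 and 922 in Sham. Endothelial markers (2 of 2) summed to 7972 to 9545 in HPC0h, against 9313, 10088 and 4201 in Sham, and smooth muscle and pericyte markers (2 of 2) to 18186 to 20170 in HPC0h, against 19399, 18480 and 21568 in Sham. The oligodendrocyte marker miR-219a-2-3p had 5254, 4866 and 4371 in HPC0h, against 6614, 6166 and 2194 in Sham, lower than Sham a and b in each HPC0h library (-0.41 ± 0.10 without Sham u, SE, limma adjusted p = 0.371, and 0.11 ± 0.43 over 6 libraries). Of the other oligodendrocyte markers, miR-338-3p had 1, 1 and 4 in HPC0h, against 1, 1 and 363 in Sham, and miR-219a-5p had 1 in every numbered library and 0 in Sham u. The part of cell makeup in the differences was not tested, and in bulk tissue fewer cells of a type and less RNA per cell cannot be told apart.

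No broad class of the library passed a test of its share. Entries of 18 to 23 nt held 88.4 ± 1.84% of the library total in HPC0h and 90.0 ± 1.48% in Sham (SD, n = 3 each). Entries of 27 to 32 nt, the length of most mammalian piRNAs, held 0.920 ± 0.179% (27 to 29 nt) and 1.93 ± 0.418% (30 to 32 nt) in HPC0h, against 0.822 ± 0.0777% and 2.37 ± 1.21% in Sham. Catalogued piRNAs held 0.697 ± 0.0622% in HPC0h and 0.809 ± 0.311% in Sham. Without Sham u the Sham means were 0.629% for catalogued piRNAs and 1.67% for 30 to 32 nt, so both differences changed direction. They were 89.3% for 18 to 23 nt and 0.867% for 27 to 29 nt, with the direction kept. No class passed without Sham u either, where the libraries also allow no p below 0.1 (exact permutation). Over 9 such classes the exact two-sided permutation test gave an adjusted p of 0.9 for each, where the smallest raw p that 3 against 3 libraries allow is 0.1. HPC0h libraries had 2884 ± 49.0 entries above 0 and Sham libraries 2185 ± 860 (exact permutation p = 0.1, and 0.2 without Sham u).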

How the data were processed

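Small RNA was sequenced from rat CA1 tissue. Per the labels' protocols, total RNA was extracted with Trizol, ligated to 3′ and 5′ adaptors, reverse transcribed, amplified by PCR, size-selected and sequenced on a HiSeq instrument. Cutadapt 1.9.3 and Novoalign 3.02.12 were used, per the submitters' processing notes, and their settings are not given in the sources used here. The deposited values are handled as a score: they are normalised tag counts per the file headers, and by their values whole numbers with nearly equal library totals, so raw depth is unknown and no intervals on counts are given. Column headings beginning with P were read as HPC0h.

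Blanks were read as 0. Entries linked by containment or by an identical end overlap of at least 15 nt were summed. Entries sharing a run of at least 16 nt with a RefSeq mature microRNA (GRCr8), with a 5′ shift of at most 3 nt, were summed per microRNA. Values were tested with limma 3.58.1 (intensity trend) on log2(value + 1), a scale that understates changes of low values, where the mean was at least 1, with Benjamini-Hochberg adjustment at 0.05, in R 4.3.3. Shares were tested with exact permutation in scipy 1.17.1. TMM factors (trimmed mean of M values) were computed in R. The fit was tested on simulated data. No label says that libraries came from separate animals, so the p-values reflect only how far these libraries vary, which may be technical.

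Groups with a mean of at least 10 that passed, or that came nearest without overlap, were named, with chosen piRNAs, the most abundant groups and microRNA lists. Members and lists were chosen with earlier results of these data known. Alternatives were other pseudocounts, filters, scalings, limma options, linking rules, blanks as missing, the 7 numbered libraries in 1 fit, and each library left out. Lines emptied in the table are not reported here.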

Additional observations from a re-analysis of the deposited data

How the results depend on the processing

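Over 6 libraries, the counts of 0 called entries, groups and microRNA sums became 46, 14 and 2 without Sham u. With the 7 numbered libraries in 1 fit they were 36 entries and 11 groups, and with blanks as missing 33 entries and 6 groups. The other alternatives of that fit called none, with 0 to 15 microRNA sums at an unadjusted p below 0.05 over all alternatives. Without Sham u, where all alternatives were chosen after seeing the data, the 46 entries became 98 with no filter, 12 with a mean of at least 10, 24 under TMM, 25 under median-of-ratios scaling and 38 to 93 when 1 further library was left out. The 14 groups became 6 with a mean of at least 10, and were 12 to 21 when 1 further library was left out. The 2 microRNA sums became 1 with a mean of at least 10, 0 under TMM, 0 under median-of-ratios scaling, 0 under quantile normalisation and 0 with the 7 numbered libraries, and 2 to 5 when 1 further library was left out (5 without HPC0h a). The difference of novel_4408_x1081 (miR-136-3p) was -1.93 over 6 libraries and 0.58 without Sham u, since Sham u held 749. Of single named results, 1336 alternatives without Sham u left the call as it was, 10 gained a call and 31 lost one. In 75 of the 1336, over 30 results none of which passed, the sign changed. The other causes were not tested. Leaving out a library that left 1 Sham library assumes that it varies like the others. No paired analysis was possible because the column headings carry no replicate numbers shared between the groups. The rounding to whole numbers and the unknown read depth limit values of a few tags.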
